A study of Mus musculus with 12 samples.

Results

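The acyl-CoA thioesterase genes Acot1, Acot2, Acot3, Acot4, Acot6, Acot7, Acot8, Acot9, Acot11 and Acot13 were examined in adipocytes differentiated in culture, and these 10 genes were taken by symbol from the 55573 genes of the count table. The cells came from the stromal vascular fraction (SVF) of mouse subcutaneous fat, which is the mixture left when mature adipocytes are removed from digested tissue, and were harvested on day 8. The mice carried PPARγ, the nuclear receptor that drives fat cell formation, as wild type (WT), as homozygous T166A (TA, which cannot be phosphorylated at threonine 166) or as homozygous T166D (TD, in which aspartate mimics the phosphorylated residue). There were 4 libraries of each genotype. The knock-in was made with CRISPR-Cas9 on a background labelled C57BL/6, which the study's methods give as C57BL/6 J, and is global, so every cell type of the culture carried the mutation, and WT littermates served as controls. The adipogenic mixture given to all 3 genotypes for 4 days held 125 nM indomethacin, 0.5 mM IBMX, dexamethasone, 850 nM insulin and 1 nM of the thyroid hormone T3, and was then replaced by the last 2 alone. The labels do not state whether the libraries of a genotype came from separate mice, so the p-values measure the spread between these libraries, which may be technical.

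Acyl-CoA thioesterases hydrolyse fatty acyl-CoA to the free fatty acid and coenzyme A, the opposite of the step by which acyl-CoA synthetases activate fatty acids. They set the balance of acyl-CoA, free fatty acid and coenzyme A in the cytosol, mitochondria and peroxisomes. The family holds structurally unrelated groups. Acot1 to Acot6 are type I enzymes encoded in a cluster of near copies, and the others are type II enzymes with a hotdog fold. Several type I genes are known as targets of the PPAR receptors in liver and heart.

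Depth ran from 16553324 to 20324286 counts per library, with 18823619 to 20324286 in WT, 16950175 to 18182526 in TA and 16553324 to 18357864 in TD. The 10 adipocyte markers were detected in every genotype, with a summed level of 15700 to 18600 CPM (counts scaled to the TMM-normalized library size) in WT, 15600 to 21300 in TA and 10300 to 12500 in TD. The 12 skeletal muscle markers summed to 1.54 to 8.61 CPM in WT, where Myog was at 0, to 15.9 to 74.5 in TA and to 15.3 to 273 in TD, of which TD replicate 3 and TD replicate 4 were highest. The 10 fibroblast and preadipocyte markers summed to 9180 to 12500 CPM in WT, 10400 to 18600 in TA and 15700 to 23700 in TD, with Dlk1 at 0 in WT and TD. Most of this sum came from the collagen genes Col3a1 (mean 7150 CPM in WT, 10400 in TA and 13800 in TD) and Col1a1 (2840, 3070 and 4690). The 8 endothelial markers summed to 28.3 to 60.7, 52.5 to 97 and 109 to 139 CPM, and the 12 macrophage markers to 296 to 881, 149 to 644 and 676 to 938 CPM, in WT, TA and TD. In these bulk samples, fewer adipocytes and less marker RNA per adipocyte cannot be told apart. The adipocyte markers Plin1, Fabp4 and Cidec are also among the PPAR targets listed below, so these sums do not measure adipocyte content alone.

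Acot2 was lower in both mutants than in WT, and Acot13 was lower in TD. Acot4 was lower in both mutants by a smaller amount. Its call held under 9 of 20 other settings in TA and 16 of 20 in TD. No member was called as higher in a mutant. Of the 10 genes, 9 passed the low count filter and Acot3 did not. In TD against WT, 3 of the 9 tested were lower, none was higher and 6 were not called (edgeR's quasi-likelihood test with Benjamini-Hochberg adjustment, adjusted p under 0.05), while 29.2% of all 15117 genes tested were called, 14.2% as lower and 15.1% as higher. In TA against WT, 2 were lower and 7 were not called, beside 11.1% of all genes called, 4.41% as lower and 6.72% as higher. In TD against TA, 0 of 9 were called, although 2 had an unadjusted p under 0.05 and DESeq2 called 2, beside 16.7% of all genes called by edgeR, 9.37% as lower and 7.33% as higher. The median log2 fold change of the 9 genes against WT was -0.07 for TD and -0.12 for TA, where the medians over all genes were 0.01 and -0.01. Between the mutants it was 0.01, where that over all genes was 0.02. The comparisons of TA and TD with WT share their WT libraries.

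**Figure D1:**
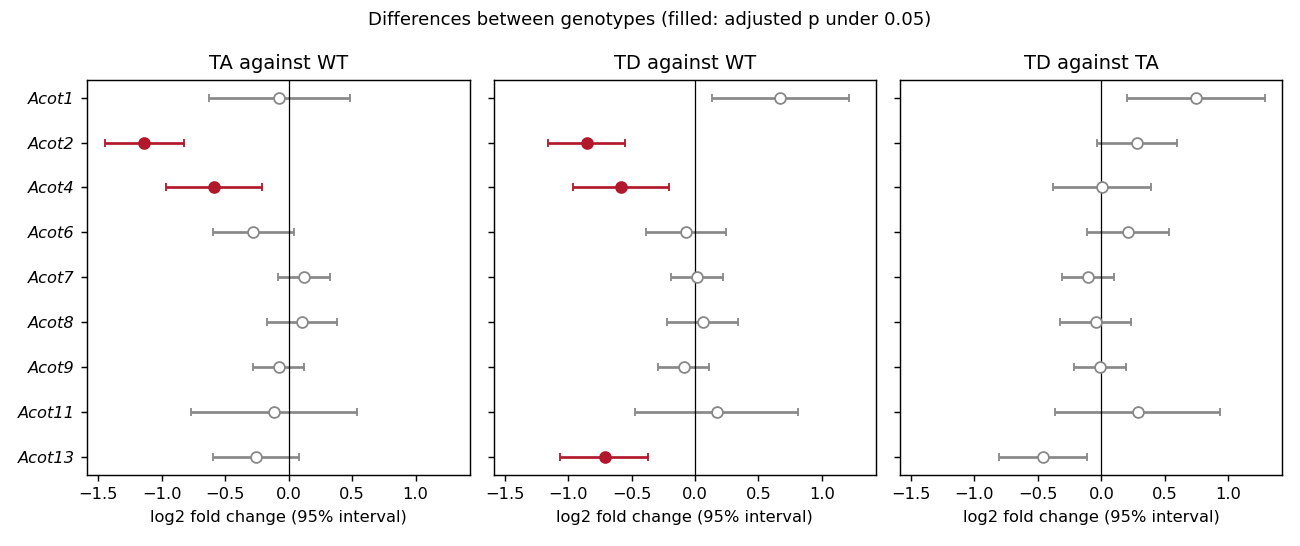
Each point is the log2 fold change of a tested gene and each bar its 95% interval, with a panel for each pair of genotypes, and filled points mark an adjusted p under 0.05. Acot2 and Acot4 are filled and left of 0 in both comparisons with WT, Acot13 is filled in TD against WT, and no point is filled in TD against TA.

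Levels were divided by exon length to compare genes. That length joins the exons of all annotated transcripts, used or not, so the order and the shares below depend on it. Before the division, Acot9 had 37.9 ± 1.96 CPM in WT and Acot13 34.5 ± 3.04, with overlapping ranges. Per kilobase of exon, Acot13 was the highest member in WT at 46.4 ± 4.09 CPM per kb (SD, n = 4). Acot9 followed at 16.7 ± 0.86, Acot2 at 14.3 ± 0.66 and Acot7 at 9.30 ± 0.80 CPM per kb. Acot8 had 4.49 ± 0.47, Acot6 1.69 ± 0.27 and Acot4 1.35 ± 0.29 CPM per kb. Acot1 at 0.52 ± 0.10, Acot11 at 0.38 ± 0.14 and Acot3 at 0.02 ± 0.02 CPM per kb were the lowest. Among neighbours in this order, the ranges over the WT libraries overlapped for Acot6 and Acot4 and for Acot1 and Acot11, and those of the other neighbours did not. The order of Acot9 and Acot2 holds for the counts as deposited, since 17.1% of the 100-base exon windows of Acot2 and 0.705% of those of Acot9 occur in another gene, and how reads from such windows were counted is not given in the sources used here. With 50-base windows the shares were 27.7% for Acot2 and 15.2% for Acot9, and the read length is not given. In the mutants Acot2 moved below Acot7, with 4.87 to 8.55 CPM per kb in TA, where it overlapped Acot8 at 4.32 to 5.45, and 6.97 to 8.97 in TD, where it overlapped Acot7 at 8.57 to 10.0.

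Summed over the 10 genes, the level was 95.1 ± 5.60 CPM per kb in WT, 79.3 ± 11.6 in TA and 69.8 ± 9.74 in TD. Acot13 made up 48.8% ± 1.49 of the sum in WT, 48.7% ± 3.56 in TA and 40.2% ± 4.35 in TD. Acot2 made up 15% ± 0.70 in WT, 8.06% ± 1.10 in TA and 11.4% ± 1.00 in TD (all SD, n = 4). Acot9, which was called in no comparison, made up 17.5% ± 0.71, 20.1% ± 2.06 and 22.5% ± 1.49 of the sum.

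**Figure D2:**
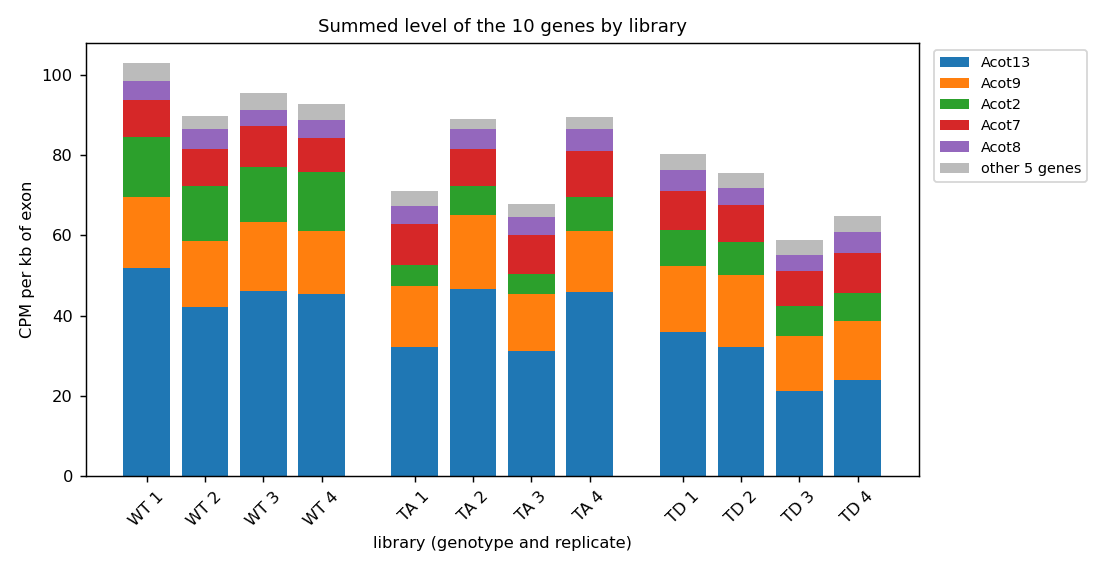
Stacked bars give the summed CPM per kb of exon in each of the 12 libraries, with separate colours for Acot13, Acot9, Acot2, Acot7 and Acot8 and grey for the other 5 genes. WT bars reach 89.7 to 102.8 CPM per kb and TD bars 58.8 to 80.1, and TA bars fall into a lower pair (replicates 1 and 3) and a higher pair (replicates 2 and 4).

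Acot2 is the mitochondrial matrix enzyme of the type I group, and the neighbouring Acot1 is its cytosolic near copy. Acot2 lies at chr12:83987861-83993873 on the plus strand of GRCm38, with 3 exons, and Acot1 at chr12:84009490-84018371 on the same strand. Their coding sequences were 95.3% identical over 1236 aligned bases, with 58 differing bases and identical runs of up to 273 bases. Reads from such runs cannot be assigned to 1 of the genes. Of the 100-base windows in the annotated exons, 17.1% of those of Acot2 also occurred in another gene, all of them in Acot1, and 12.4% of those of Acot1 occurred elsewhere. The stretch of 60 coding bases below, in exon 3 of both genes, holds 13 differences and is shown because reads across it tell the genes apart. Capitals mark the differing bases, and the sequences run 5′ to 3′ at chr12:83992664-83992723 for Acot2 and chr12:84016942-84017001 for Acot1 (GRCm38, plus strand).
Acot2: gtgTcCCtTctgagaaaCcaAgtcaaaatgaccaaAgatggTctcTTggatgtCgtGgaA
Acot1: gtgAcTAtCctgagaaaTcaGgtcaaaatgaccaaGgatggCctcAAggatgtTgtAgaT

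Acot2 stood at 32.8, 30.1, 30.0 and 32.3 CPM in the WT libraries. In TA it stood at 11.4, 16.1, 10.7 and 18.8 CPM, and in TD at 19.7, 17.7, 16.6 and 15.3 CPM. All 8 mutant libraries were below all 4 WT libraries, while TA and TD overlapped. TA was 2.20-fold lower than WT, a log2 fold change of -1.14 (SE 0.15, adjusted p = 8.79e-05, edgeR). Of all genes tested in that comparison, 3.49% had a larger absolute change. TD was 1.81-fold lower than WT, at -0.85 (SE 0.14, adjusted p = 0.000531, edgeR). TD exceeded TA by 0.28 on the log2 scale, with a 95% interval of -0.03 to 0.60 and an adjusted p of 0.207 (edgeR), so a difference between the mutants was not shown. It ran from 0.17 to 0.46 when each library was left out, and it passed the threshold under 1 of 20 other settings, without TA replicate 4 (0.46, adjusted p = 0.0334).

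Acot1 was counted at a low level, with 18 to 71 reads per library. It stood at 2.13, 1.74, 2.53 and 1.70 CPM in WT, at 2.16, 1.11, 1.84 and 2.56 in TA and at 3.69, 2.91, 3.78 and 2.52 in TD. The TD libraries were mostly above the others, but the lowest TD library overlapped both groups. The log2 difference of TD from WT was 0.67 (95% interval 0.13 to 1.21, adjusted p = 0.057, edgeR) and that of TD from TA 0.75 (0.20 to 1.29, adjusted p = 0.0569), both short of the threshold. The difference from TA passed it under 4 of 20 other settings, with adjusted p from 0.0359 to 0.209. TA differed from WT by -0.08 (-0.63 to 0.48, adjusted p = 0.901). Against WT, the TD value passed the threshold under 6 of 20 other settings, among them scaling by library totals, a stricter count filter and a fit of those genotypes alone, with adjusted p from 0.0319 to 0.183. The values of Acot1 and Acot2 differed in sign in TD, and the part of shared reads in either value was not tested.

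**Figure D3:**
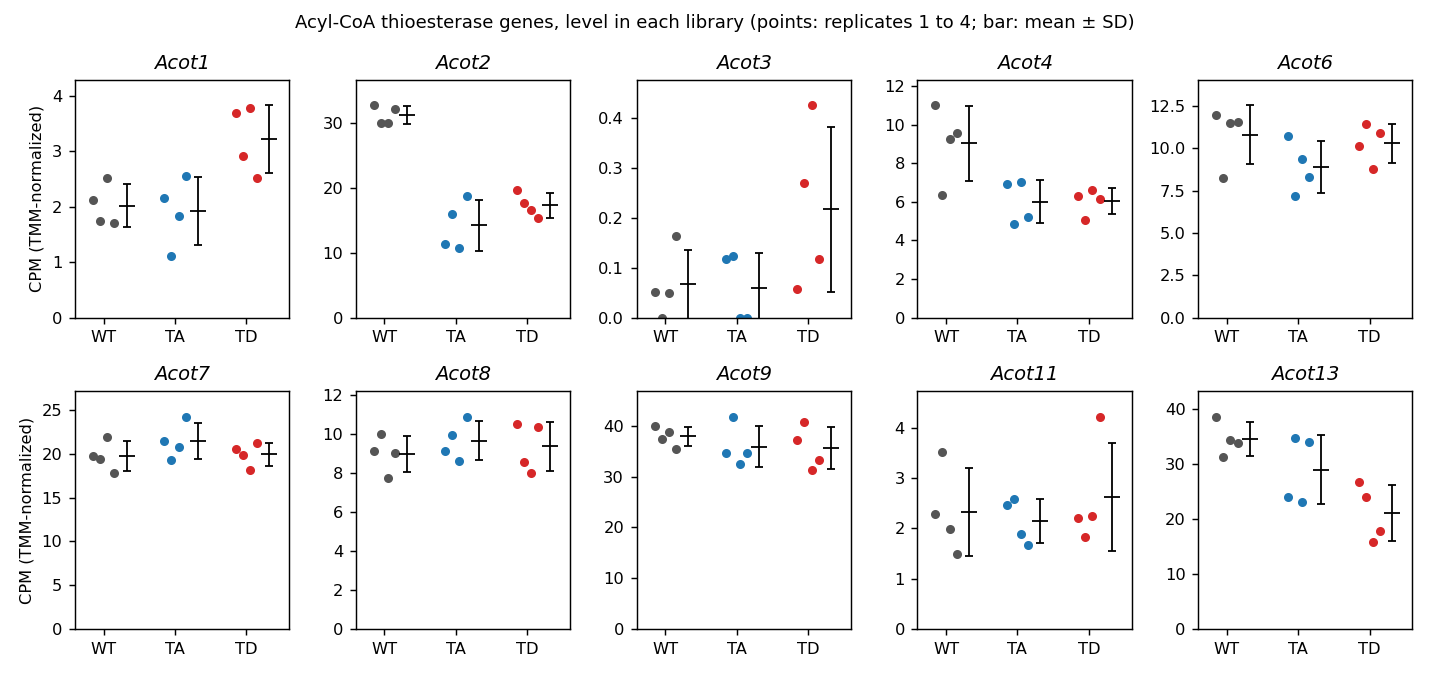
Panels give the level of each of the 10 genes in TMM-normalized CPM from 0, with a point for each of the 4 replicates of WT, TA and TD and a bar for the mean ± SD, cut at 0. The 8 mutant libraries of Acot2 sit at 10.7 to 19.7 CPM below the WT libraries at 30.0 to 32.8, and the TD libraries of Acot13 sit below its WT libraries.

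The rest of the type I cluster, on the same strand, holds enzymes of the peroxisome. Acot4 (chr12:84038379-84048601), which acts on succinyl-CoA and the CoA esters of dicarboxylic acids, stood at 11, 6.36, 9.27 and 9.54 CPM in WT, at 6.90, 4.86, 7.01 and 5.22 in TA and at 6.30, 5.07, 6.60 and 6.16 in TD. WT replicate 2 lay within the range of both mutants, and the other WT libraries were above all mutant libraries. Relative to WT, the log2 fold change was -0.59 in TA (SE 0.18, adjusted p = 0.0418, edgeR) and -0.58 in TD (SE 0.18, adjusted p = 0.021). The first call was lost without each of 9 libraries, WT replicates 1, 3 and 4, TA replicates 1, 2 and 4 and TD replicates 1, 3 and 4, with an adjusted p of up to 0.133, and the second without WT replicate 1, WT replicate 4 or TD replicate 2, with an adjusted p of up to 0.084. TD and TA differed by 0.01, with a 95% interval of -0.38 to 0.39. Of the Acot4 exons, 9.22% are also covered by the antisense gene 4732463B04Rik, whose mean count was 5.67 against 129.3 for Acot4.

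Acot6 (chr12:84100654-84111349) stood at 8.24 to 12 CPM in WT, 7.20 to 10.8 in TA and 8.78 to 11.4 in TD. The groups overlapped, and the differences from WT were -0.28 (95% interval -0.60 to 0.04) for TA and -0.07 (-0.38 to 0.25) for TD. Acot3 (chr12:84052144-84060402) was barely detected, with 1, 0, 1 and 3 reads in WT, 2, 2, 0 and 0 in TA and 1, 5, 8 and 2 in TD. Its CPM did not pass an exact two-sided permutation test (p = 0.143 for TD against WT, p = 1 for TA against WT and p = 0.143 for TD against TA, where 0.0286 is the smallest p possible), so no difference was detectable in these counts. Of the 100-base exon windows, 15.9% of those of Acot3 and 0.95% of those of Acot6 occurred in another gene. Shared reads may therefore limit the count of Acot3 as well as depth.

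**Figure D4:**
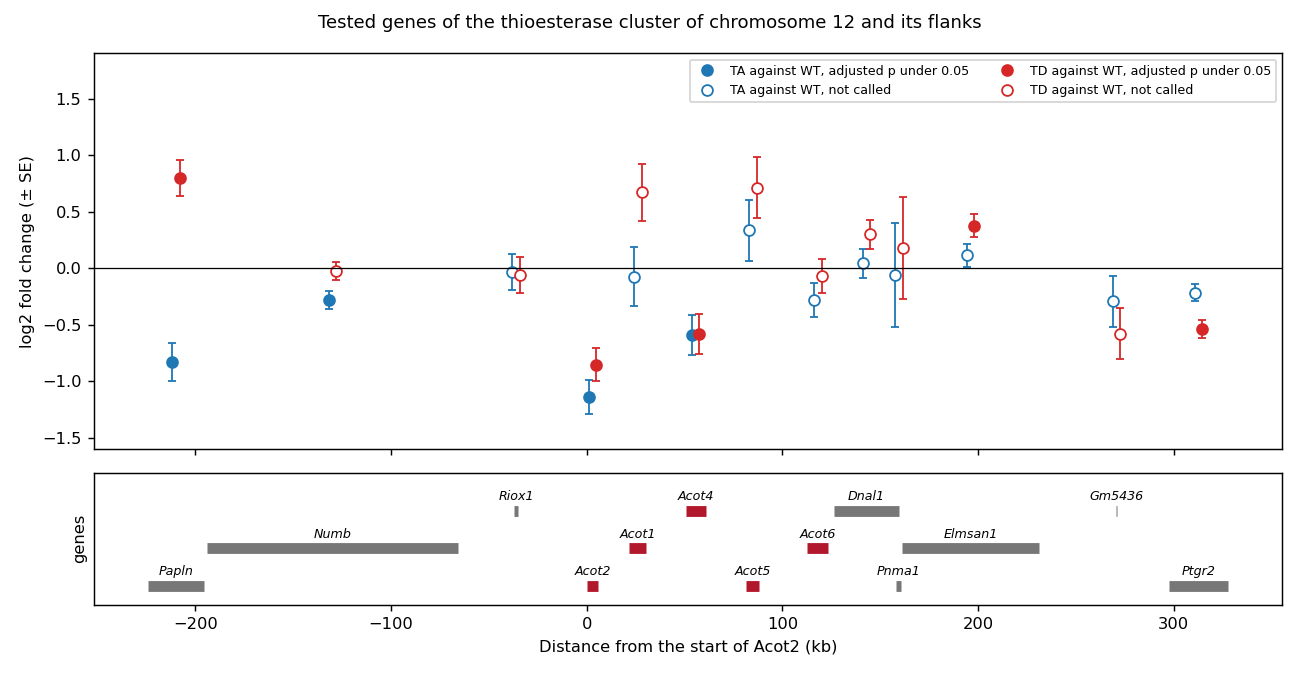
The upper panel gives the log2 fold change (± SE) against WT of each tested gene near the cluster, placed by its distance from the start of Acot2 in kb, in blue for TA and red for TD, with filled points for adjusted p under 0.05. The lower panel draws the genes to scale with the thioesterases in red. Acot2 and Acot4 lie below 0 in both mutants while Acot1, between them, lies above 0 in TD and near 0 in TA.

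The cluster spans 123 kb in the order Acot2, Acot1, Acot4, Acot3, Acot5 and Acot6. Acot5, which is no member of the list but lies in the cluster, differed from WT by 0.71 in TD (adjusted p = 0.0567, edgeR) and 0.33 in TA (adjusted p = 0.499). Acot1, between Acot2 and Acot4, was called in no comparison. Within 200 kb on either side, 8 other genes were tested, of which 3 were called in TD against WT (1 lower) and 2 in TA against WT (both lower). Over all genes tested, 29.2% and 11.1% were called in these comparisons. The nearest tested gene before Acot2, Riox1, differed from WT by -0.06 in TD and -0.04 in TA, and the nearest after Acot6, Dnal1, by 0.30 (adjusted p = 0.0953) and 0.04 (adjusted p = 0.887), none of which was called.

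The promoters of Acot1 and Acot2 are less alike than their coding sequences. The 250 bases before the RefSeq start of each gene were 52.7% identical over 226 aligned bases. That value lies within the range over all pairs of members with such a window, from 47.9% (Acot4 and Acot7) to 71.7% (Acot8 and Acot9). PPARγ binds with its partner RXR to direct repeats of AGGTCA spaced by a base, so these windows were searched on both strands. Entries were found for 8 of the 10 genes, with none for Acot6 and Acot13. AGGTCA occurred in 14.0% of 32851 mouse promoters of this length. The repeat AGGTCANAGGTCA occurred exactly in 0.0335% and with up to 2 mismatches in 3.24%, and every such repeat that carries an exact AGGTCA is also counted among the first. Among the members, Acot4 alone held AGGTCA and, at the same place, a repeat with 2 mismatches, beginning 13 bases before the start and read on the opposite strand. The windows of Acot2, Acot1 and Acot4 are shown because these neighbours had different values against WT; capitals mark the match in Acot4, and Acot2 and Acot1 held none. They run 5′ to 3′ on the plus strand at chr12:83987611-83987860, chr12:84009252-84009501 and chr12:84038129-84038378 (RefSeq, GRCm38.p6). A match of letters is a description and not a binding site.
Acot2: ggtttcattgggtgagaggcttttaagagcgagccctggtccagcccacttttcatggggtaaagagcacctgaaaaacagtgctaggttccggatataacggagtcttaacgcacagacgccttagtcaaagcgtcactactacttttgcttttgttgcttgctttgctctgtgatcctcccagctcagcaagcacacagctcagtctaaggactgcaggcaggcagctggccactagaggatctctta
Acot1: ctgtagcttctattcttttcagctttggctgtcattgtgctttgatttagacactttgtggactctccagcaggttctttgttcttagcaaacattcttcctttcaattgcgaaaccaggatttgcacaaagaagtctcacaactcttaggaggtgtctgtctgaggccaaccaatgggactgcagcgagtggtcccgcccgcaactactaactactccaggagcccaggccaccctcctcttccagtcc
Acot4: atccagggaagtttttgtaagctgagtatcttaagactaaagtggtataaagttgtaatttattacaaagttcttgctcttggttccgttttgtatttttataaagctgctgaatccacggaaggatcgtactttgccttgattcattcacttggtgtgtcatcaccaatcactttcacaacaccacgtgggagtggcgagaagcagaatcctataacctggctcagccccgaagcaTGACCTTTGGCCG

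Acot13 (Them2), a small type II enzyme that associates with mitochondria and binds the phosphatidylcholine transfer protein, lies at chr13:24817948-24831540 on the minus strand. None of its 100-base exon windows occurred in another gene. It stood at 38.7, 31.3, 34.4 and 33.8 CPM in WT, at 24.0, 34.7, 23.2 and 34.1 in TA and at 26.8, 24.0, 15.8 and 17.8 in TD. All TD libraries were below all WT libraries, while TA replicates 2 and 4 lay within the WT range and TA replicates 1 and 3 below it. TD was 1.64-fold lower than WT, a log2 fold change of -0.71 (SE 0.16, adjusted p = 0.00391, edgeR). TA differed from WT by -0.25 (95% interval -0.59 to 0.08, adjusted p = 0.352), and TD from TA by -0.46 (-0.80 to -0.11, adjusted p = 0.0649), neither of them called. The last value passed the threshold under 4 of 20 other settings, with adjusted p from 0.000605 to 0.592.

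TD replicates 3 and 4, with the lowest Acot13, also had the highest summed muscle markers, 272.7 and 159.1 CPM. Without both of them, the TD against WT value of Acot13 was -0.45 (adjusted p = 0.0991), that of Acot4 was -0.67 (adjusted p = 0.0857) and that of Acot2 was -0.74 (adjusted p = 0.0224, edgeR), so that 1 of 9 genes was called in place of 3. With 2 TD libraries left, this fit has fewer samples, and 1516 of all genes were called in place of 4418. TD replicates 3 and 4 also had the lowest adipocyte marker sums of TD, 11090 and 10310 CPM, beside 12480 and 12430 in TD replicates 1 and 2. Their fibroblast and preadipocyte sums were the highest, 21670 and 23740 CPM beside 15700 and 17870. Leaving them out therefore changes these marker sums together. The adipocyte sums were lower in all 4 TD libraries than in all WT libraries. The part of any of these marker sets in the values of TD was not tested. The adipocyte markers reached 15600 to 21300 CPM in TA beside 15700 to 18600 in WT. Their part in the TA value of Acot2, which was lower as well, was not tested.

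The remaining type II members were called in no comparison. Acot9, a mitochondrial enzyme, stood at 35.4 to 40.0 CPM in WT, 32.6 to 41.8 in TA and 31.2 to 40.8 in TD, with log2 differences from WT of -0.08 (95% interval -0.28 to 0.12) and -0.09 (-0.29 to 0.11). Acot7, best known as the abundant acyl-CoA hydrolase of brain, stood at 17.9 to 22.0, 19.4 to 24.3 and 18.2 to 21.3 CPM, with differences of 0.12 (-0.08 to 0.33) in TA and 0.01 (-0.19 to 0.22) in TD. Acot8, a peroxisomal enzyme, stood at 7.73 to 9.98, 8.63 to 10.9 and 7.98 to 10.5 CPM, with differences of 0.11 (-0.17 to 0.39) and 0.06 (-0.22 to 0.34). Its count is uncertain, since 12.3% of its exon bases overlap the antisense gene Snx21, which had a mean count of 578.3 against 169.8.

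Acot11, also called BFIT (brown fat inducible thioesterase), was first described as a cold-induced gene of brown fat. It was at the low end here, at 2.28, 3.53, 1.98 and 1.48 CPM in WT, 2.46, 2.58, 1.89 and 1.67 in TA and 2.21, 1.83, 2.24 and 4.22 in TD. The groups overlapped, and the intervals were wide, with a log2 difference from WT of -0.12 (95% interval -0.77 to 0.54) in TA and 0.17 (-0.47 to 0.81) in TD. Without TD replicate 4 the TD value was -0.15. Of the Acot11 exon bases, 20.9% overlap the antisense gene Fam151a, which had a mean count of 0.33 against 43.1. How reads there were counted is not given, so the level of Acot11 is uncertain.

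The enzymes around the thioesterases were followed by lists. Among 8 tested of 14 other thioesterases, 1 was higher and 1 lower in TD against WT, and 2 were lower in TA against WT. Hibch, the mitochondrial 3-hydroxyisobutyryl-CoA hydrolase of valine breakdown, fell in both, by 0.67 in TD (adjusted p = 0.000644, edgeR) and by 0.53 in TA (adjusted p = 0.00715) on the log2 scale. Ppt1, a lysosomal enzyme that removes palmitate from proteins, rose by 0.38 in TD (adjusted p = 0.00871). The median of the list was -0.20 in TD and -0.06 in TA, and no gene was called in TD against TA, where its median was 0.09.

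The acyl-CoA synthetases, which work in the other direction, had 15 of 23 genes tested. In TA against WT, 5 were higher and 2 lower, with a median of 0.18, and in TD against TA 6 were lower and none higher, with a median of -0.29. Slc27a1, a fatty acid transporter with synthetase activity, led both counts, at 827 ± 60.9 CPM in TA against 296 ± 15.2 in WT and 338 ± 24.9 in TD (log2 fold change 1.48, adjusted p = 1.59e-08, and -1.29, adjusted p = 6.19e-08, edgeR). In TD against WT, 1 was higher, Slc27a3 (0.97, adjusted p = 0.000832), and 4 were lower, with a median of -0.12. Beside these counts, 6.72% of all genes tested were higher and 4.41% lower in TA against WT. The shares were 7.33% and 9.37% in TD against TA, and 15.1% and 14.2% in TD against WT. Acsm3, a medium-chain synthetase, had the largest fall in both comparisons with WT, -2.14 in TD and -2.97 in TA, but its count is uncertain because 39.8% of its exon bases overlap the antisense gene Eri2.

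Of 19 tested genes of coenzyme A supply and acyl-CoA binding, 6 were lower and none higher in TD against WT (median -0.21). In TA against WT 0 were called (median -0.04), and in TD against TA 6 were lower (median -0.19). Over all genes tested, 14.2% were lower in TD against WT and 9.37% in TD against TA, and in TA against WT 4.41% were lower and 6.72% higher. Dbi, the acyl-CoA binding protein, fell by 0.62 on the log2 scale in TD against WT (adjusted p = 0.000356, edgeR), and Pank1, a pantothenate kinase of coenzyme A synthesis, fell by 0.91 in TD against TA (adjusted p = 4.54e-05). All 20 genes of peroxisomal acyl-CoA oxidation were tested, of which 15 were lower and none higher in TD against WT (median -0.40), 1 was higher and 2 lower in TA against WT (median 0.01) and 12 were lower in TD against TA (median -0.38). Acox2, an oxidase of branched-chain acyl-CoA, fell by 2.17 in TD and by 1.45 in TA (adjusted p = 0.000704 and 0.0158) with genotype means of 0.42 to 1.9 CPM, Scp2, a sterol carrier and thiolase, rose by 0.40 in TA (adjusted p = 0.00486), and Ehhadh, the bifunctional enzyme, fell by 0.92 in TD against TA (adjusted p = 6.43e-05).

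Of 22 tested PPAR targets, 19 were lower and 2 higher in TD against WT (median -0.58), 1 was lower and 4 higher in TA against WT (median 0.05) and 16 were lower and none higher in TD against TA (median -0.53). Plin5, a lipid droplet coat protein, had the largest fall in TD, -1.94 against WT (adjusted p = 5.67e-05, edgeR) and -2.09 against TA (adjusted p = 1.09e-05). Acadvl, which starts very long chain fatty acid oxidation, fell by 0.29 in TA against WT (adjusted p = 0.0438, edgeR).

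The genes whose profile over the 12 libraries was nearest to that of Acot2, by the mean absolute difference of centred log2 CPM among 10895 genes, were Sdr39u1 (0.10), Alad (0.10), an enzyme of heme synthesis, and Creld1 (0.13), where the median gene was at 0.47. Sdr39u1 had mean levels of 17.0 CPM in WT, 7.79 in TA and 8.35 in TD, and Alad 36.9, 18.2 and 22.2 CPM. Nearest to Acot13 were Gyg (0.10), the glycogenin that primes glycogen, Ndufa6 (0.10), a subunit of respiratory complex I, and Gm15417 (0.10), with the median gene at 0.35. Gyg had 191 CPM in WT, 170 in TA and 117 in TD, and Ndufa6 97.8, 86.3 and 57.0. These distances are descriptions over libraries that share their depth and genotype.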

How the data were processed

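Per the labels and the study's methods, total RNA of the 12 cultures was extracted with TRIzol and sequenced on a NovaSeq instrument. The submitters' processing notes name bcl2fastq 2.17.1.14, cutadapt 1.9.1, HISAT2 2.0.1 and HTSeq 0.6.1 on GRCm38; the strand setting and read length are not given in the sources used here. The authors deposited read counts per gene without normalization, and all 12 libraries held equal values as a joint table and library by library.

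Genes were kept by filterByExpr (minimum count 10, minimum total 15), scaled by TMM and fitted in edgeR 4.0.16 (R 4.3.3, limma 3.58.1) as 1 quasi-likelihood model over all libraries, with no covariate. Tests were two-sided, adjusted by Benjamini-Hochberg over 15117 genes and called at an adjusted p under 0.05. CPM were divided by the exon union length of GENCODE M21 (55480 of 55573 identifiers matched) for levels per kb. Log2 CPM used a prior count of 2. The steps were tested on simulated data. Replicate pairs differed by more than sampling noise (chi-square per degree of freedom 4.96 to 39.0), so none was treated as a repeat of another.

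The genes named are all 10 members, the called gene with the largest rise and fall of each list and comparison, and the 3 genes nearest in profile to the 2 members with the largest called change; genes of the cluster and its flanks were added. Some of what this rule names is not reported here. The members and lists were chosen with earlier results of these data known. Alternatives were DESeq2 1.42.0, other scalings and filters, a fit of the compared genotypes alone, the replicate block, a fold threshold and leaving out each library. Leaving out the TD libraries with the highest muscle markers was chosen after seeing the data. Intervals cover the spread between libraries.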

Additional observations from a re-analysis of the deposited data

Results flagged for a closer look

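In 45 groups of 4 libraries, the gap of the highest or lowest library to the next was tested against Dixon's 95% critical value, which chance passes in about 2.25 of 45 groups, and 2 groups passed. Acot6 in WT replicate 2 stood at 8.24 CPM, below the other WT libraries, with a gap of 0.869 of the range. Acot11 in TD replicate 4 stood at 4.22 CPM, above the other TD libraries, with a gap of 0.831 of the range. Neither gene was called in any comparison.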

How the results depend on the processing

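Acot2 was called as lower in both comparisons with WT under all 20 settings run. In TD against WT, 3 genes were called, 2 to 4 when each library was left out, and 1 without the 2 TD libraries of highest muscle markers, where Acot9 was 0.0398 and Acot11 -0.2. In TA against WT, 2 were called, 1 with only those genotypes fitted, 1 without the 2 TD libraries, and 1 to 2 when each library was left out. In TD against TA, none was called, against 2 with DESeq2 and 1 with library totals, with no filter and with the strict filter, and 0 to 2 when each library was left out. Replicate numbers did not pair the libraries (correlations -0.237 to 0.196; 2 of 12 libraries correlated best with their own number); the replicate block called 3, 2 and 0 genes in TD against WT, TA against WT and TD against TA. The cause of these moves was not tested. Fits that left out libraries also had fewer of them, and the part of that number was not tested either.

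Uncalled values near 0 turned sign. With library totals, Acot6 was 0.00224 in TD against WT, and Acot8 0.0323 and Acot9 0.0689 in TD against TA. With DESeq2, Acot4 was -0.000669 in TD against TA, and without the 2 TD libraries Acot4 was -0.0792, Acot9 0.119 and Acot11 -0.085. With each library left out, TD against WT ran from -0.181 to 0.00138 for Acot6, -0.0327 to 0.071 for Acot7, -0.00431 to 0.129 for Acot8 and -0.15 to 0.446 for Acot11, TA against WT from -0.254 to 0.107 for Acot1 and -0.276 to 0.161 for Acot11, and TD against TA from -0.0752 to 0.0895 for Acot4, -0.107 to 0.0287 for Acot8, -0.0828 to 0.0752 for Acot9 and -0.0355 to 0.425 for Acot11. Scaling by library totals moved the median of all genes to 0.08 in TD against WT and 0.10 in TD against TA, and 2840 of 4398 and 1802 of 2784 calls were then higher, in place of 2276 of 4418 and 1108 of 2524. Low counts limit Acot1, Acot3 and Acot11.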

Other observations

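Set against the summed adipocyte markers, a ratio chosen after seeing the data, Acot2 stood at 1.83 ± 0.07 CPM per 1000 CPM of markers in WT, 0.76 ± 0.14 in TA and 1.49 ± 0.06 in TD (SD, n = 4), with no overlap between the 3 ranges (1.76 to 1.92, 0.65 to 0.95 and 1.42 to 1.58). Acot4 stood at 0.52 ± 0.08 in WT, 0.33 ± 0.10 in TA and 0.53 ± 0.09 in TD, and Acot13 at 2.02 ± 0.12, 1.55 ± 0.16 and 1.81 ± 0.31. On this scale the TD libraries of Acot4 (0.41 to 0.60) and Acot13 (1.42 to 2.15) overlapped those of WT (0.41 to 0.59 and 1.86 to 2.13). The TA libraries of Acot4 (0.23 to 0.45) overlapped those of WT too, and the TA libraries of Acot13 (1.36 to 1.72) did not. The ratio also depends on its denominator. Plin1, Fabp4 and Cidec are both adipocyte markers and listed PPAR targets, and all were called as lower in TD against WT. Mean Fabp4 was 7710 CPM (WT), 8900 (TA) and 5170 (TD), and its TA value was not called. These ratios are therefore not a level per adipocyte, and how far such changes set them was not tested.

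Within TA, replicates 2 and 4 had more Acot2 and Acot13 than replicates 1 and 3, while Acot4 was higher in replicates 1 and 3. The adipocyte marker sums were 21320 and 19760 CPM in TA replicates 2 and 4 and 17570 and 15630 CPM in replicates 1 and 3. The labels give no batch for these libraries.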
